A study of Mus musculus with 16 samples.

Results

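The genes with the longest genomic spans were examined across 16 total RNA libraries of mouse embryonic stem cells (ESCs). Members were chosen by 2 criteria, a distance of at least 300000 bases between the start and the end of the gene row, and a level above 0 log2 RPM (more than 1 RPM, reads scaled to the total of the library) in 4 or more of the 16 libraries. Of the 26127 rows of the table, 548 span 300 kb or more, and 280 of these 548 also met the level criterion. The other 268 long rows did not, 13 of them with no read in any library. The 280 members are set below beside all 12892 rows that met the same level criterion, whatever their span.

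A gene of such length consists almost wholly of introns. RNA polymerase II needs hours to cross it, so elongation, splicing inside very long introns and premature termination bear more on its output than on that of a short gene. Long genes are enriched for adhesion molecules, channels and synaptic scaffolds that are used mainly in neurons and muscle, and some of the longest lie in common fragile sites, regions prone to breaks under replication stress. DNMT1 copies DNA methylation to the new strand after replication, and DICER cuts precursors into microRNAs and other small RNAs.

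The libraries fall into 3 groups by their labelled genotype, all of labelled background strain E14 and cell type ESC. WT libraries (Wildtype, n = 8) carry control Dicer and Dnmt1, Dnmt1 KO libraries (Dnmt1-/-, n = 4) carry control Dicer, and Dicer/Dnmt1 KO libraries (Dicer/Dnmt1 -/-, n = 4) lack both. The methods name C57BL/6 Dnmt1 loxP/loxP ESCs as the parent line, a background that differs from the labelled E14, and describe deletion by tamoxifen-induced Cre, lines grown from single colonies after CRISPR/Cas9, and culture in serum and LIF with or without feeders. The labels give no time point, no clone and no culture for a library, only a number (1 to 4 in WT, 1 and 2 in the other groups) and a letter, A or B, whose meaning is not stated. Libraries of 1 number may come from 1 culture or 1 extract, so p-values measure the spread between libraries, which may in part be technical.

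Libraries held 31.46 to 52.54 M reads, and 44.2% to 48.7% of them lay in listed genes. Dnmt1 was at 4.17 to 4.63 log2 RPM in the Dnmt1 KO libraries and 4.49 to 4.64 in the Dicer/Dnmt1 KO libraries, against 7.40 to 7.66 in the WT libraries of numbers 1 to 3. The libraries WT 4A and WT 4B stood apart with 5.69 and 5.55. The counts over all members, the span classes, the role lists and the named members were also computed without them, and 92 of 96 calls of named members against WT were kept. Dicer1 was at 3.68 to 4.06 log2 RPM in Dicer/Dnmt1 KO, 4.56 to 5.68 in WT and 5.28 to 5.68 in Dnmt1 KO. All 10 ESC markers were above the level criterion, and their summed level was 1917 to 3387 RPM in WT, 1752 to 2437 RPM in Dnmt1 KO and 1970 to 2319 RPM in Dicer/Dnmt1 KO. Against WT, 3 of them were lower and none higher in Dnmt1 KO, with a median change of -0.27 on the log2 scale. In Dicer/Dnmt1 KO 2 were lower and 1 higher, with a median of -0.14. Of the 10 feeder fibroblast markers, 7 were higher in Dnmt1 KO than in WT and 8 in Dicer/Dnmt1 KO, with summed levels of 201 to 712 RPM in WT, 412 to 552 RPM in Dnmt1 KO and 544 to 933 RPM in Dicer/Dnmt1 KO. Of the 6 primitive endoderm markers, Dnmt1 KO had 6 higher and Dicer/Dnmt1 KO 4, with sums of 51.3 to 108 RPM, 124 to 213 RPM and 105 to 121 RPM in the same order. Among 10 neural markers 5 were tested, of which 3 were higher and 1 lower in Dicer/Dnmt1 KO than in WT and, in Dnmt1 KO, none higher and 1 lower, with sums of 38.2 to 89.7 RPM in WT and 53.1 to 70.3 RPM in Dicer/Dnmt1 KO, and Dcx had at most 3 reads in every library. Of 5 trophoblast markers 3 were tested, with 2 higher than WT in Dnmt1 KO, 1 in Dicer/Dnmt1 KO and none lower. Of 4 mesoderm markers 1 was tested, and it was called in neither knockout. In bulk RNA, more cells of a type and more RNA per cell cannot be told apart, and the part of these markers in the changes of the long genes was not tested.

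The members spanned 301 kb to 4435 kb, with a median of 416 kb. They comprise 275 protein-coding rows and 5 rows annotated as long intergenic RNA, on all 19 autosomes and X, from 3 members on chromosome 19 to 24 on chromosome 5. Their longest transcripts were longer than usual too, with a median of 6027 bases against 3135 over all rows tested, and a median of 19 exons against 8. The median longest intron was 121282 bases against 6511, and exons of the longest transcript covered a median of 1.33% of the span against 13.2%. Within the bounds of 111 of the 280 members lay 314 other rows, 214 of them on the opposite strand. The libraries are stranded, but whether the counting used strand is not stated, so reads of a nested gene and of its host may not be fully separated.

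The 10 longest rows include gene models to read with care. Gm20388 (chr8:122434741-126869622, plus strand, 4435 kb, build NCBIM37 as for all coordinates here) carries a predicted symbol, and its span rests on a single very wide transcript model. Fgfr2 (chr7:137305965-140315033), a fibroblast growth factor receptor, owes its 3009 kb to a single annotated transcript that starts far outside all others of the gene. Next came Ptprd, a receptor tyrosine phosphatase, at 2271 kb, Dmd, the dystrophin gene, at 2257 kb, and Cntnap2, a neurexin-family adhesion molecule, at 2241 kb. Macrod2, a hydrolase of ADP-ribose marks, spanned 1998 kb, Pde4d, a cAMP phosphodiesterase whose symbol stands on 2 rows of the table, 1504 kb, and Magi2, a membrane scaffold, 1479 kb. Arfip1, a partner of Arf GTPases whose span likewise rests on a single transcript, at 1391 kb, and Immp2l, a subunit of a mitochondrial inner membrane peptidase, at 1306 kb, closed the 10. The 10 did not share a direction. Called higher in Dicer/Dnmt1 KO than in WT were Gm20388, Fgfr2, Ptprd, Cntnap2 and Pde4d. With letters A and B averaged, the limma calls of Fgfr2, Ptprd and Cntnap2 were lost (adjusted p = 0.177, 0.0918 and 0.0802). Dmd was at 4.93 to 5.31 log2 RPM in WT (median 5.14), 5.16, 5.34, 5.06 and 5.14 in Dnmt1 KO and 5.11, 5.23, 5.18 and 5.18 in Dicer/Dnmt1 KO, and its change from WT was 0.03 ± 0.07 (log2 fold change ± SE, adjusted p = 0.792) in Dnmt1 KO and 0.02 ± 0.07 (adjusted p = 0.794) in Dicer/Dnmt1 KO. Macrod2 and Magi2 likewise passed the test in neither knockout. Immp2l fell in both, by 1.40 ± 0.23 on the log2 scale in Dnmt1 KO (adjusted p = 0.000119) and by 0.92 ± 0.23 in Dicer/Dnmt1 KO (adjusted p = 0.00216). Here and below, changes and adjusted p-values come from 1 limma fit over all 12892 rows with Benjamini-Hochberg adjustment, and values of the 4 libraries of a knockout are given in the order 1A, 1B, 2A, 2B.

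The level of the members, set per kilobase of transcript so that genes can be compared, had a median of 0.955 RPM per kb against 4.35 RPM per kb over all rows tested. The highest per kilobase were Adk, the adenosine kinase gene, at 34.5 RPM per kb, Snd1, a nuclease-domain protein of RNA silencing complexes, at 31.0, and Exoc4, a subunit of the vesicle-tethering exocyst, at 27.6. Macf1 at 23.3 and Dst at 22.4 RPM per kb followed, both encoding giant linkers of actin and microtubules. Not scaled to length, the highest mean levels were Macf1 (9.05 log2 RPM), Dst (8.96), Utrn, the dystrophin relative utrophin (7.12), Exoc4 (7.06) and Etl4 (6.89). Exoc4 hardly differed between groups, at 6.98 to 7.14 log2 RPM in WT (median 7.10), 7.02, 7.03, 6.93 and 6.96 in Dnmt1 KO and 7.15, 7.08, 7.08 and 7.0 in Dicer/Dnmt1 KO. Macf1 ran at 8.27 to 9.22 log2 RPM in WT (median 9.0), 8.81, 8.85, 9.03 and 9.05 in Dnmt1 KO and 9.52, 9.56, 9.41 and 9.47 in Dicer/Dnmt1 KO, so that all 4 Dicer/Dnmt1 KO libraries lay above every other library. With a transcript length trend removed from each library, the change of Macf1 in Dicer/Dnmt1 KO against WT was instead -0.40 (limma, adjusted p = 0.00017).

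Summed up, the long genes were most abundant in the Dicer/Dnmt1 KO libraries. Their median level was 2.93 ± 0.08 log2 RPM (SD, n = 4 libraries) in Dicer/Dnmt1 KO, with a range of 2.87 to 3.04, against 2.44 ± 0.06 (n = 4), with a range of 2.38 to 2.50, in Dnmt1 KO. In WT it was 2.22 ± 0.26 (n = 8), from 1.80 in WT 4B to 2.54 in WT 1A. No Dicer/Dnmt1 KO library overlapped any other, whereas the Dnmt1 KO libraries lay inside the WT range. The median of all rows tested stayed between 3.58 and 3.75 log2 RPM in all 16 libraries. The members took 1.36% to 1.46% of the reads in genes in Dicer/Dnmt1 KO, 0.928% to 1.09% for Dnmt1 KO and 0.694% to 1.21% for WT.

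**Figure D1:**
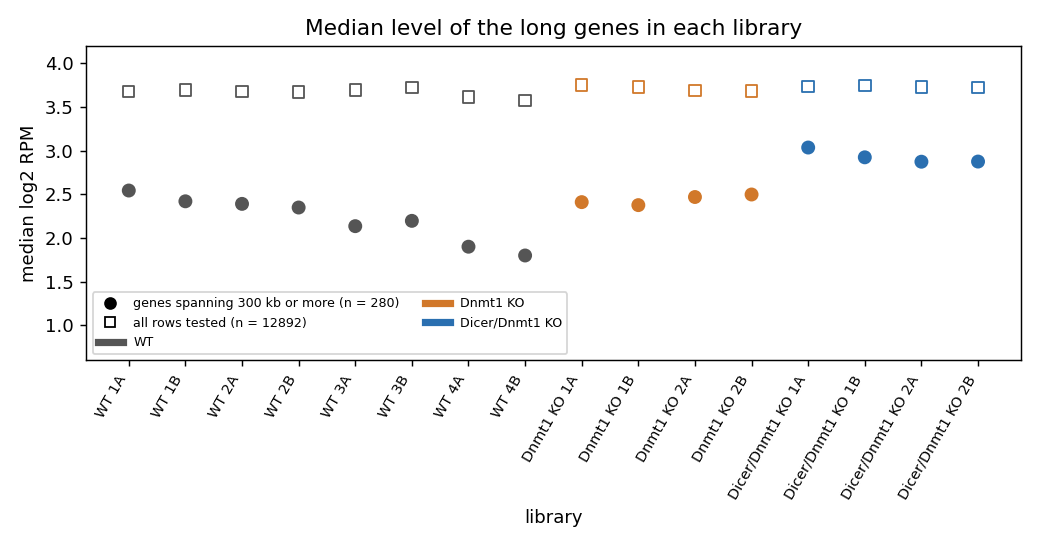
Median log2 RPM (y axis) of the 280 long genes (filled circles) and of all 12892 rows tested (open squares) in each of the 16 libraries (x axis), coloured by group. The 4 Dicer/Dnmt1 KO libraries lie at 2.87 to 3.04 for the long genes, above the other 12, and the WT libraries spread from 1.80 to 2.54.

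Dnmt1 KO was compared with WT to see which long genes followed the loss of the maintenance methyltransferase. Of the 280 members, 105 were higher (37.5%) and 29 lower (10.4%), while 146 did not pass the test. Over all rows tested 23.5% were higher, 17.5% lower and 41.0% either. The median change of the members was 0.22 on the log2 scale (quartiles -0.13 and 0.67) against 0.04 over all rows, and 40 members (14.3%) were at least 2-fold higher against 5.07% of all rows. The excess of rises rested in part on WT number 4. Without WT 4B alone 103 members were higher (36.8%) and 41 lower (14.6%), with a median of 0.14, beside 23.9% and 18.8% of all rows. Without both WT 4A and WT 4B the counts were 94 higher (33.6%) and 57 lower (20.4%), with a median of 0.11, beside 24.6% higher and 20.4% lower over all rows. The share of falls then equalled that of all rows. Against WT numbers 1 and 2 alone the counts were 88 and 60, with a median of 0.06, beside 25.2% and 18.5% of all rows. With letters A and B averaged, 64 members were higher and 11 lower, beside 11% and 6.74% of all rows.

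Dicer/Dnmt1 KO was compared with the same WT libraries, so the 2 knockouts share their controls. In it 179 members were higher (63.9%), 18 lower (6.43%) and 83 did not pass, beside 31.9% higher, 30.1% lower and 61.9% either over all rows. The median change was 0.61 (quartiles 0.14 and 1.05) against 0.02 over all rows. An estimate above 0 was found in 230 members (82.1%) against 51.7% of all rows, and 80 members (28.6%) were at least 2-fold higher against 9.47% of all rows. Without WT number 4 the counts were 168 higher and 24 lower with a median of 0.47, beside 30.9% and 30.3% of all rows, and with A and B averaged they were 139 and 10, beside 21.6% and 18.2%.

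Dicer/Dnmt1 KO was then compared directly with Dnmt1 KO, which sets the loss of Dicer against a Dnmt1-deficient background and uses no WT library for the estimate. The calls still depend on the WT libraries, because the spread was estimated over all 16 libraries. Here 94 members were higher (33.6%), 8 lower (2.86%) and 178 did not pass, beside 16.9% higher, 19.4% lower and 36.3% either over all rows. The share called in either direction, 36.4%, was thus near that of all rows, and the split by direction differed. The median change was 0.30 (quartiles 0.02 and 0.64) against -0.01 over all rows. Without WT number 4 in the fit, 122 members were higher (43.6%) and 13 lower (4.64%), beside 21.5% and 23.3% of all rows. With A and B averaged, leaving 2 values a group, 25 members were higher and 2 lower, beside 5.28% and 4.22% of all rows.

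The level criterion let some members in through a single group. Above 0 log2 RPM in all 16 libraries stood 197 members, of which Dnmt1 KO against WT had 59 higher (29.9%) and 23 lower (11.7%), beside 21.2% and 17.6% of all rows held to the same limit. Dicer/Dnmt1 KO against WT had 122 (61.9%) and 9 (4.57%), beside 29.8% and 31.4%, and the knockouts against each other 84 (42.6%) and 7 (3.55%), beside 17.2% and 20.4%. Among the other members, 16 needed the Dicer/Dnmt1 KO libraries to reach 4, 11 the Dnmt1 KO libraries and 8 the WT libraries. These had to differ between groups to some degree, so the counts over all 280 are read beside those over the 197. For members named below with fewer than 4 WT libraries above 0 log2 RPM, changes against WT are given as a description, with no p. The same holds for Spag16, which met the criterion through WT libraries alone.

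The change rose with span over the whole table rather than stepping up at 300 kb. The median change of Dicer/Dnmt1 KO from WT was -0.21 for 3339 rows under 10 kb, -0.06 for 4195 rows of 10 to 30 kb, 0.14 for 3698 rows of 30 to 100 kb, 0.35 for 1084 rows of 100 to 200 kb and 0.46 for 296 rows of 200 to 300 kb. It was 0.59 for the 190 members under 500 kb and 0.65 for the 90 members of 500 kb or more. Without WT number 4 it ran from -0.19 under 10 kb to 0.46 and 0.51 in these last classes. Between the knockouts the medians ran from -0.17 under 10 kb over 0.27 at 200 to 300 kb to 0.28 and 0.36 in the 2 longest classes. In Dnmt1 KO against WT the rise was shallower, from -0.02 over 0.13 to 0.21 and 0.22. As a description over the 12892 rows, which share their libraries, the Spearman correlation between change and span was 0.11 in Dnmt1 KO, 0.30 in Dicer/Dnmt1 KO and 0.30 between the knockouts. Within the 280 members it was 0.08, 0.09 and 0.02, weaker than over the whole table.

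**Figure D2:**
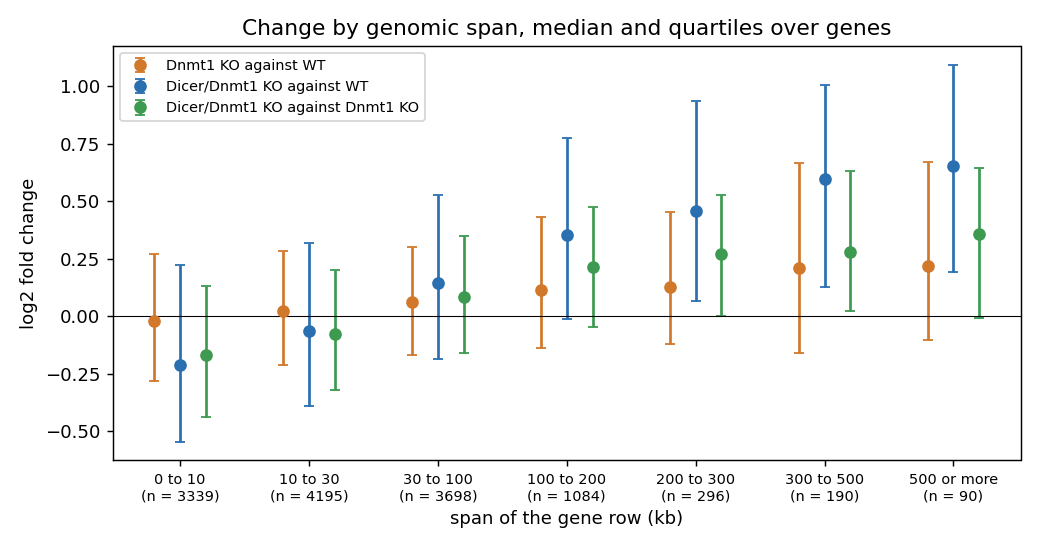
Log2 fold change (y axis) by span class in kb (x axis, with the number of rows) for the 3 comparisons. Points are medians over rows and bars run from the lower to the upper quartile. The Dicer/Dnmt1 KO against WT medians climb from -0.21 under 10 kb to 0.65 at 500 kb or more.

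Transcript length moved with span and went with the change at least as closely. The correlation of the change with transcript length over the same rows was 0.14, 0.36 and 0.35 in the 3 comparisons, and within the members 0.20, 0.35 and 0.30. At a given transcript length the long genes still had the higher medians in most classes. Among rows with transcripts of 5 to 8 kb, the median change in Dicer/Dnmt1 KO against WT was 0.13 under 30 kb of span, 0.27 at 30 to 100 kb, 0.43 at 100 to 300 kb and 0.72 for the 106 members. Among transcripts of 8 kb or more it was 0.21, 0.39, 0.55 and, for 73 members, 0.80. The members with transcripts under 3 kb, 31 in number, had a median of 0.11, and 35.5% of them were higher, against 76.7% of the members with transcripts of 8 kb or more. Between the knockouts the 70 members with transcripts of 3 to 5 kb had a median of 0.19, beside 0.20 for rows of 100 to 300 kb with such transcripts. With a smooth transcript length trend removed from each library, the median change of the members was 0.05 in Dnmt1 KO, 0.22 in Dicer/Dnmt1 KO and 0.14 between the knockouts, beside -0.07, -0.10 and -0.03 over all rows. After that step 88 members were higher (31.4%) and 66 lower (23.6%) for Dnmt1 KO, beside 18.7% and 28.6% of all rows. The counts for Dicer/Dnmt1 KO were 119 (42.5%) and 55 (19.6%), beside 24.4% and 38.4%, and between the knockouts 80 (28.6%) and 29 (10.4%), beside 16.7% and 21.3%.

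**Figure D3:**
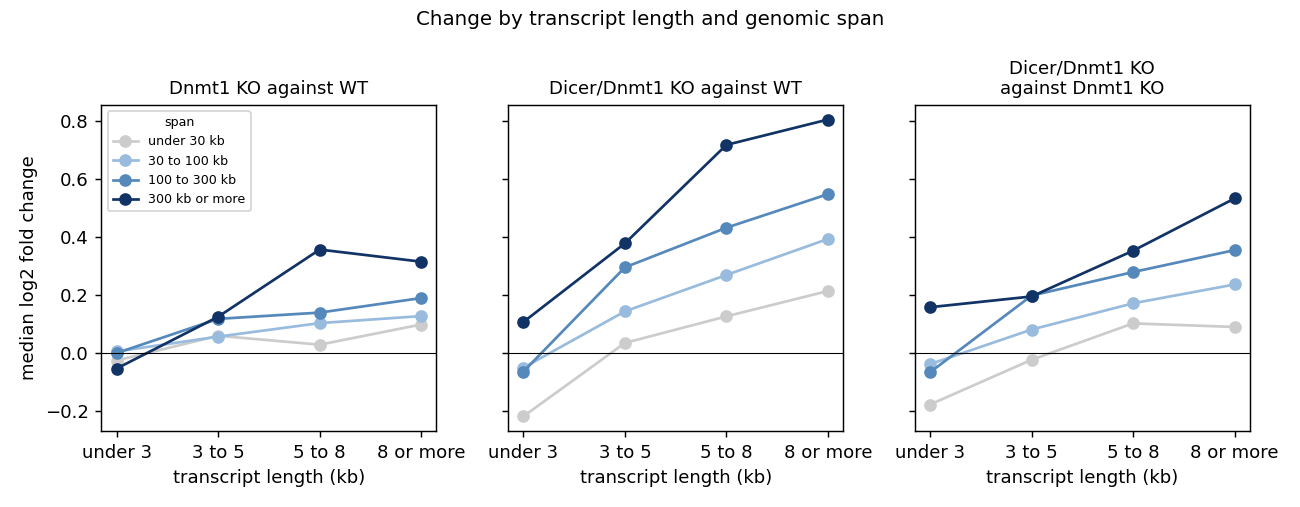
Median log2 fold change (y axis) by length of the longest transcript in kb (x axis), with 1 line for each span class and 1 panel for each comparison. In Dicer/Dnmt1 KO against WT the line of genes spanning 300 kb or more lies highest in all 4 transcript classes, from 0.11 to 0.80, and every line climbs with transcript length.

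Correlations with transcript length were also present among WT libraries. The coefficient used here is one of ranks and does not give the size of a trend. The deviation of a library from the WT mean correlated with transcript length over the 12892 rows with a Spearman coefficient of 0.41 in WT 1A, 0.40 in WT 2A and 0.36 in WT 2B, and of -0.51 and -0.52 in WT 4A and WT 4B. In Dicer/Dnmt1 KO it was 0.32 to 0.36, inside the WT range, and in Dnmt1 KO -0.04 to 0.23. The member medians were 2.54, 2.39 and 2.35 log2 RPM in WT 1A, WT 2A and WT 2B, and 2.87 to 3.04 in Dicer/Dnmt1 KO. The part of a library-wide length trend in the changes of single members was not tested beyond its removal above.

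**Figure D4:**
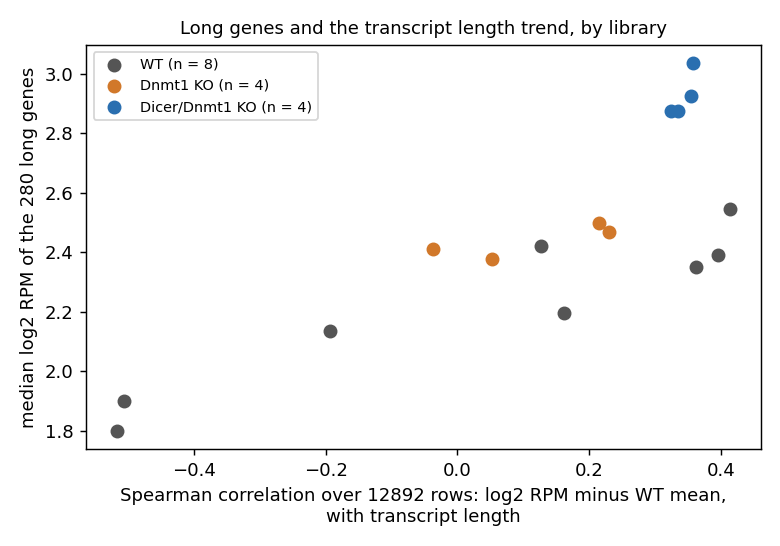
Median log2 RPM of the 280 long genes in a library (y axis) against the Spearman correlation, over 12892 rows, of its deviation from the WT mean with transcript length (x axis), 1 point for each of 16 libraries. WT libraries run from -0.52 to 0.41 on the x axis. The Dicer/Dnmt1 KO libraries lie at 0.32 to 0.36, with medians of 2.87 to 3.04 on the y axis.

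The changes were largest among members of low level in the comparisons with WT. Such members include those that met the level criterion through a single group, which had to differ between groups to some degree. Over the 197 members above 0 log2 RPM in all 16 libraries, the median change was 0.09 for Dnmt1 KO and 0.50 for Dicer/Dnmt1 KO. For the 77 members with a mean under 1 log2 RPM the median change was 0.66 for Dnmt1 KO and 0.83 for Dicer/Dnmt1 KO, beside 0.22 and 0.32 for all rows of that level. For the 32 members of 5 log2 RPM or more it was 0.03 and 0.40, beside 0.01 and -0.09. Between the knockouts the order was different, with 0.07 for the 77 members of low level and 0.31 for the 32 of high level.

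Named below are, for each comparison, the 6 members with the largest rise and the 6 with the largest fall among those that passed the test, had a mean of at least 1 log2 RPM, did not overlap between groups and bear a gene name rather than a predicted or clone symbol. Itpr2 (chr6:146056821-146450745, minus strand, 394 kb), a calcium release channel of the endoplasmic reticulum gated by inositol trisphosphate, led the rises against WT. It was at 0.79 to 2.44 log2 RPM in WT (median 1.44), 3.5, 3.40, 3.93 and 3.80 in Dnmt1 KO and 5.41, 5.43, 5.37 and 5.42 in Dicer/Dnmt1 KO. The 3 groups formed separate steps, with a change of 2.16 ± 0.24 (adjusted p = 1.61e-06) in Dnmt1 KO, 3.91 ± 0.24 (adjusted p = 4.89e-10) in Dicer/Dnmt1 KO and 1.75 ± 0.27 (adjusted p = 0.000111) between the knockouts. Pkhd1 (chr1:20047860-20608145, 560 kb), which encodes the ciliary protein fibrocystin, was at -0.68 to 0.47 log2 RPM in WT (median 0.37), 1.93, 1.64, 2.11 and 1.92 in Dnmt1 KO and 3.06, 3.03, 3.27 and 3.42 in Dicer/Dnmt1 KO. It too stepped up from group to group, by 1.75 ± 0.19 and 3.04 ± 0.19 on the log2 scale against WT (adjusted p = 1.94e-06 and 9.63e-10). Camk1d (chr2:5214503-5635561, 421 kb), a calcium and calmodulin dependent kinase, was at 2.46 to 3.34 log2 RPM in WT (median 2.89), 4.16, 4.35, 4.43 and 4.27 in Dnmt1 KO and 5.55, 5.53, 5.45 and 5.40 in Dicer/Dnmt1 KO. All its Dicer/Dnmt1 KO libraries were above all Dnmt1 KO libraries, and these above all WT libraries, with 2.58 ± 0.14 (adjusted p = 9.16e-11) in Dicer/Dnmt1 KO.

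Further members rose in both knockouts, though the call of Pclo in Dnmt1 KO depended on the libraries and settings. Zbtb7c, a zinc finger and BTB domain regulator, was at -0.40 to 0.80 log2 RPM in WT (median 0.34), 1.72, 1.64, 1.93 and 2.05 in Dnmt1 KO and 2.58, 2.89, 2.86 and 2.75 in Dicer/Dnmt1 KO. Its groups did not overlap, and the change was 2.45 ± 0.18 (adjusted p = 6.2e-09) in Dicer/Dnmt1 KO. Nalcn (chr14:123675863-124026366, 351 kb), the sodium leak channel, was at -0.21 to 0.77 log2 RPM in WT (median 0.54), 1.73, 1.70, 2.02 and 2.07 in Dnmt1 KO and 2.71, 2.36, 2.48 and 2.58 in Dicer/Dnmt1 KO. It changed by 1.41 ± 0.16 (adjusted p = 2.91e-06) in Dnmt1 KO and 2.06 ± 0.16 (adjusted p = 1.32e-08) in Dicer/Dnmt1 KO. Glis3 (chr19:28333341-28754567, 421 kb), a Kruppel-like zinc finger factor, was at -0.16 to 1.27 log2 RPM in WT (median 0.72), 1.37, 1.94, 2.14 and 1.64 in Dnmt1 KO and 3.05, 2.78, 2.74 and 2.81 in Dicer/Dnmt1 KO. The lowest knockout library, at 1.37, lay just above the highest WT library, at 1.27, and the change was 2.17 ± 0.23 (adjusted p = 4.28e-07) in Dicer/Dnmt1 KO. Cdh4 (chr2:179177136-179634078, 457 kb), the cell adhesion molecule R-cadherin, was at 0.52 to 1.17 log2 RPM in WT (median 0.78), 2.40, 2.23, 2.66 and 2.39 in Dnmt1 KO and 2.76, 2.75, 2.69 and 2.53 in Dicer/Dnmt1 KO. It rose by 1.62 ± 0.13 (adjusted p = 3.64e-08) in Dnmt1 KO and by 1.88 ± 0.13 (adjusted p = 2.28e-09) in Dicer/Dnmt1 KO, while the knockouts differed from each other by 0.26 ± 0.15 (adjusted p = 0.181). Pclo (chr5:14514918-14863457, 349 kb), the presynaptic scaffold piccolo, was at -1.75 to 1.54 log2 RPM in WT (median 0.21), 1.05, 1.36, 1.43 and 1.09 in Dnmt1 KO and 3.28, 2.84, 2.54 and 2.46 in Dicer/Dnmt1 KO. Its WT libraries spread over 3 log2 units and overlapped Dnmt1 KO, and its change was 2.61 ± 0.41 (adjusted p = 3.26e-05) in Dicer/Dnmt1 KO. In Dnmt1 KO its change of 1.06 ± 0.41 (adjusted p = 0.0444) fell to 0.68 without WT number 4 (adjusted p = 0.0533) and to 0.30 against WT numbers 1 and 2 (adjusted p = 0.272), and the call was lost in 19 of the alternatives, among them those that left out WT 3A, 3B or 4A, any Dnmt1 KO library, or Dicer/Dnmt1 KO 1B, 2A or 2B.

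Another set was higher in Dicer/Dnmt1 KO than in both other groups. Megf11 (chr9:64233433-64557012, 324 kb), a transmembrane protein with EGF-like repeats, was at 0.68 to 1.29 log2 RPM in WT (median 0.98), 1.23, 1.11, 0.69 and 1.11 in Dnmt1 KO and 3.07, 2.85, 3.10 and 3.00 in Dicer/Dnmt1 KO. Its Dnmt1 KO libraries lay within the WT range, and it was the member with the largest named rise between the knockouts, 1.97 ± 0.15 (adjusted p = 7.83e-08). Prdm16 (chr4:153690234-154010982, 321 kb), a zinc finger regulator known from brown fat and blood stem cells, was at 0.39 to 1.76 log2 RPM in WT (median 1.26), 0.60, 1.22, 0.85 and 1.02 in Dnmt1 KO and 2.48, 3.09, 2.42 and 2.41 in Dicer/Dnmt1 KO. It rose by 1.67 ± 0.27 (adjusted p = 0.000133) between the knockouts and differed from WT in Dnmt1 KO by -0.22 ± 0.23 (adjusted p = 0.474). Rora (chr9:68501593-69236053, 734 kb), an orphan nuclear receptor, was at 1.45 to 2.16 log2 RPM in WT (median 1.75), 1.05, 1.66, 0.98 and 0.68 in Dnmt1 KO and 2.62, 2.56, 2.50 and 2.70 in Dicer/Dnmt1 KO. It moved in opposite directions, -0.65 ± 0.15 (adjusted p = 0.00235) in Dnmt1 KO and 0.85 ± 0.15 (adjusted p = 0.000136) in Dicer/Dnmt1 KO. The first call was lost with the number as a random effect (adjusted p = 0.0722), and the rise dropped to 0.23 with the transcript length trend removed (adjusted p = 0.352). Arhgap26, a GTPase-activating protein, was at 1.90 to 2.63 log2 RPM in WT (median 2.22), 1.67, 1.88, 1.83 and 2.23 in Dnmt1 KO and 3.36, 3.35, 3.27 and 3.21 in Dicer/Dnmt1 KO. Its change was -0.37 ± 0.14 (adjusted p = 0.0373) in Dnmt1 KO, a call lost without any 1 of 6 libraries (WT 1A, 2A or 2B, Dnmt1 KO 1A, 1B or 2A, adjusted p up to 0.129), and 1.02 ± 0.14 (adjusted p = 7.08e-06) in Dicer/Dnmt1 KO.

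Fewer members fell. Fggy (chr4:95224198-95593630, plus strand, 369 kb), a carbohydrate kinase, was at 2.71 to 3.05 log2 RPM in WT (median 2.94), 2.34, 2.22, 1.74 and 2.11 in Dnmt1 KO and 1.16, 1.12, 1.54 and 1.55 in Dicer/Dnmt1 KO. Its 3 groups stepped down without overlap, by -0.81 ± 0.12 (adjusted p = 4.55e-05) in Dnmt1 KO, -1.57 ± 0.12 (adjusted p = 9.33e-09) in Dicer/Dnmt1 KO and -0.76 ± 0.14 (adjusted p = 0.000439) between the knockouts. Eif4e3 (chr6:99207478-99616791, minus strand, 409 kb), a member of the cap-binding eIF4E family, was at 1.57 to 2.24 log2 RPM in WT (median 1.95), 0.82, 1.16, 0.59 and 1.00 in Dnmt1 KO and 0.72, 0.22, 0.06 and 0.96 in Dicer/Dnmt1 KO. Both knockouts lay below every WT library, with -1.03 ± 0.17 (adjusted p = 0.000123) and -1.44 ± 0.17 (adjusted p = 1.62e-06), and overlapped each other. Arl15 (chr13:114584713-114947669, 363 kb), an Arf-like GTPase, was at 5.13 to 5.46 log2 RPM in WT (median 5.23), 4.63, 4.90, 4.64 and 4.73 in Dnmt1 KO and 4.62, 4.53, 4.50 and 4.59 in Dicer/Dnmt1 KO. It changed by -0.53 ± 0.07 (adjusted p = 2.25e-05) in Dnmt1 KO and -0.69 ± 0.07 (adjusted p = 4.52e-07) in Dicer/Dnmt1 KO. Smyd3 (chr1:180882091-181448172, 566 kb), a lysine methyltransferase, was at 4.50 to 4.77 log2 RPM in WT (median 4.68), 4.13, 4.22, 3.84 and 3.85 in Dnmt1 KO and 4.39, 4.48, 4.24 and 4.31 in Dicer/Dnmt1 KO. It fell in both knockouts, by 0.65 ± 0.08 and 0.30 ± 0.08 on the log2 scale (adjusted p = 1.06e-05 and 0.00514), and was higher in Dicer/Dnmt1 KO than in Dnmt1 KO by 0.35 ± 0.10 (adjusted p = 0.0099). With A and B averaged the last 2 calls were lost (adjusted p = 0.0904 and 0.163), and with the transcript length trend removed the difference between the knockouts was 0.10 (adjusted p = 0.597).

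Some named members were lower in Dnmt1 KO and not called in Dicer/Dnmt1 KO against the same WT libraries, among them Scaper and Ank3. Scaper (chr9:55397690-55767412, 370 kb), which encodes a cyclin A associated protein of the endoplasmic reticulum, was at 4.17 to 4.45 log2 RPM in WT (median 4.41), 3.9, 3.92, 3.70 and 3.77 in Dnmt1 KO and 4.42, 4.45, 4.35 and 4.44 in Dicer/Dnmt1 KO. Its change was -0.54 ± 0.07 (adjusted p = 9.1e-06) in Dnmt1 KO and 0.05 ± 0.07 (adjusted p = 0.518) in Dicer/Dnmt1 KO, with 0.59 ± 0.08 (adjusted p = 2.8e-05) between them. Ank3 (chr10:68996970-69490184, 493.2 kb), the membrane adaptor ankyrin-G, was at 4.22 to 5.32 log2 RPM in WT (median 4.85), 4.06, 4.16, 3.96 and 3.94 in Dnmt1 KO and 4.82, 4.80, 4.43 and 4.55 in Dicer/Dnmt1 KO. It changed by -0.77 ± 0.16 (adjusted p = 0.00115) in Dnmt1 KO and -0.15 ± 0.16 (adjusted p = 0.443) in Dicer/Dnmt1 KO.

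The falls of Dicer/Dnmt1 KO against WT included Zmat4 and Nhs. Zmat4 (chr8:24746491-25267057, 521 kb), a zinc finger protein, was at 1.09 to 1.96 log2 RPM in WT (median 1.46), 1.44, 1.24, 1.04 and 0.86 in Dnmt1 KO and 0.72, 0.82, 0.44 and 0.27 in Dicer/Dnmt1 KO. Its Dicer/Dnmt1 KO libraries lay below every other library, with -0.90 ± 0.16 (adjusted p = 0.000118) against WT. Nhs (chrX:158271228-158597662, 326 kb), an actin regulator mutated in Nance-Horan syndrome, was at 2.98 to 3.87 log2 RPM in WT (median 3.27), 2.74, 2.90, 2.95 and 2.86 in Dnmt1 KO and 2.63, 2.53, 2.36 and 2.53 in Dicer/Dnmt1 KO. The 3 groups did not overlap, and the change was -0.80 ± 0.13 (adjusted p = 5.84e-05). Between the knockouts 5 named members fell, Cntnap2, Fggy, Vav3, Zmat4 and Adk. Cntnap2 (chr6:45010060-47251368) was at 0.59 to 1.59 log2 RPM in WT (median 1.18), 2.72, 2.33, 2.60 and 2.62 in Dnmt1 KO and 1.49, 1.44, 1.46 and 1.78 in Dicer/Dnmt1 KO. It was highest in Dnmt1 KO, with 1.48 ± 0.15 (adjusted p = 7.34e-07) there and -1.03 ± 0.18 (adjusted p = 0.000237) between the knockouts. Vav3 (chr3:109143571-109488616, 345 kb), an exchange factor for small GTPases, changed by -0.68 ± 0.22 (adjusted p = 0.0256) and Adk (chr14:21871855-22267769, 396 kb) by -0.57 ± 0.15 (adjusted p = 0.00622). Both calls, and that of Zmat4 between the knockouts (-0.58, adjusted p = 0.169), were lost with A and B averaged. The call of Vav3 was also lost without any 1 of 5 libraries (adjusted p of 0.0506 to 0.0721), namely Dnmt1 KO 1A, 1B or 2B and Dicer/Dnmt1 KO 1A or 2B.

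**Figure D5:**
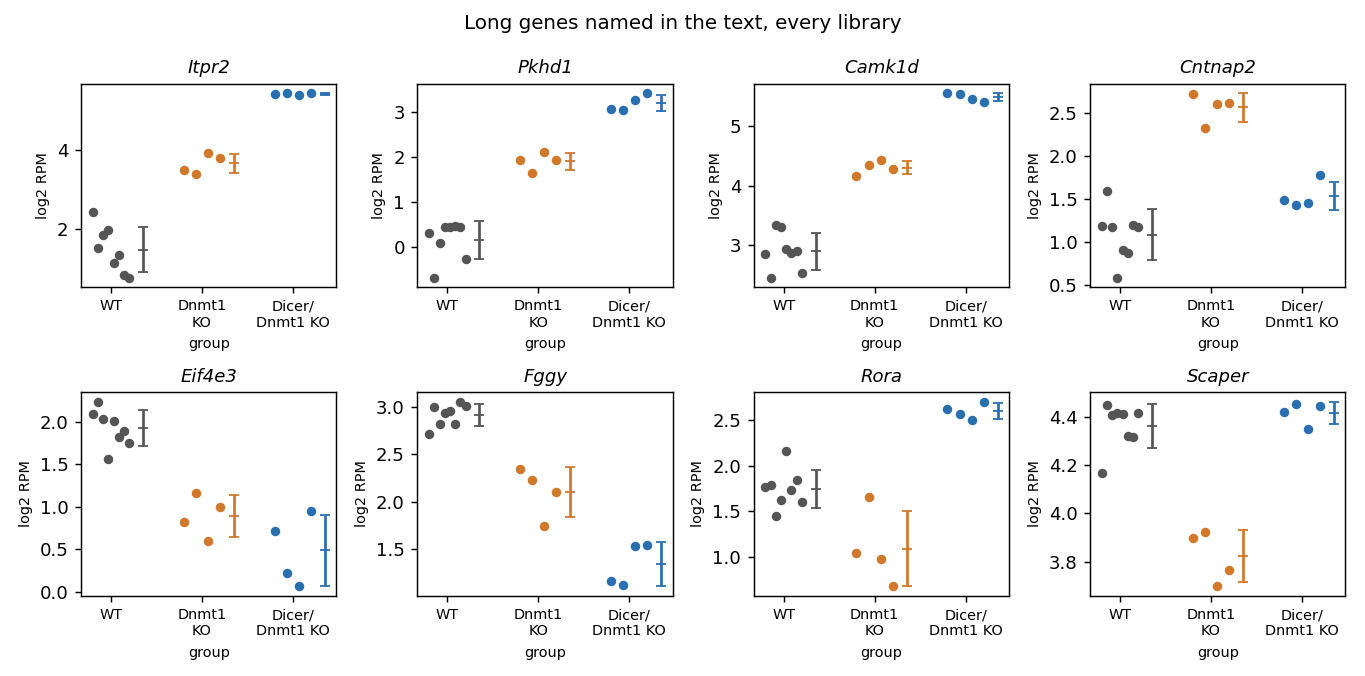
Level in log2 RPM (y axis, own scale for each gene) of 8 long genes in every library (points), by group (x axis), with mean and SD beside the points (n = 8 WT, 4 Dnmt1 KO, 4 Dicer/Dnmt1 KO). Itpr2, Pkhd1 and Camk1d step up over the 3 groups, Fggy steps down, Cntnap2 is highest in Dnmt1 KO, and Rora and Scaper are lowest there.

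Start regions of 3 of these genes are shown because Dnmt1 maintains methylation at CG pairs and because they differ in how many CG they hold. Each covers the 250 bases before and the first 50 bases of the gene row, read 5′ to 3′ on the gene's strand from build NCBIM37, with CG pairs in capitals. Those of Itpr2 and Pkhd1 belong to the 2 genes with the largest rise in Dicer/Dnmt1 KO under the naming rule above, and that of Fggy to a gene that fell in both knockouts.
Itpr2, chr6:146450696-146450995, minus strand: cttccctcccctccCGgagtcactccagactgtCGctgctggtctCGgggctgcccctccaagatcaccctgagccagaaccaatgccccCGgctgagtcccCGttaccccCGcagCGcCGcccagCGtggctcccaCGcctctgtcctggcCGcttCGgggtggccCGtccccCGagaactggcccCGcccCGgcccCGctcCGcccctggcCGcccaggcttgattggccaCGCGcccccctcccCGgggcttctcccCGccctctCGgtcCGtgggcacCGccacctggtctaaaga
Pkhd1, chr1:20608096-20608395, minus strand: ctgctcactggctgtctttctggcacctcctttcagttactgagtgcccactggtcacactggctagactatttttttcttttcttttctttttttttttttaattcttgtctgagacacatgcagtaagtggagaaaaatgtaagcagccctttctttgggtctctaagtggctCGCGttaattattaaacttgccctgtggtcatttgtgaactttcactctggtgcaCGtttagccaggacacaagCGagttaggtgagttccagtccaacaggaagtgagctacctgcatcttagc
Fggy, chr4:95223948-95224247, plus strand: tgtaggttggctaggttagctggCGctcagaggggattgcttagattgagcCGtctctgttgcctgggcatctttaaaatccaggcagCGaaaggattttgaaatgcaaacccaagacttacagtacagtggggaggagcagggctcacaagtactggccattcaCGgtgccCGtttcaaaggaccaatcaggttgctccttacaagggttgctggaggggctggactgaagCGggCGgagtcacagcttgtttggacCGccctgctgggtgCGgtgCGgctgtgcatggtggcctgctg
Itpr2 holds 26 CG pairs, Pkhd1 4 and Fggy 10. Over the members the median was 21.5 CG in 300 bases against 19 over 12875 rows tested with a full window, and at least 10 CG stood in 79.3% of the members' windows against 79.0% of all. A CG pair, which reads the same on both strands, occurred at least once in 99.3% of all windows. Of the 222 CG-rich members 63.5% were higher in Dicer/Dnmt1 KO against WT, with a median change of 0.61, and of the 58 others 65.5%, also with a median of 0.61. In Dnmt1 KO against WT these were 36.9% and 39.7%. Lower in Dnmt1 KO were 11.7% and 5.17%, and between the knockouts the medians were 0.34 and 0.24, with no test of the difference. Over all rows, 21.7% of the CG-rich and 30.3% of the others were higher in Dnmt1 KO. Methylation itself was not measured in these libraries.

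Adhesion and axon guidance molecules formed 28 members, of which 13 were higher, 1 lower and 14 not called in Dnmt1 KO, with a median change of 0.53. Of the same 28, Dicer/Dnmt1 KO had 21 higher, none lower and 7 not called, with a median of 0.70, and between the knockouts 5 were higher and 1 lower, with a median of 0.32. The shares higher in the 3 comparisons were 46.4%, 75% and 17.9%, beside 23.5%, 31.9% and 16.9% of all rows. Lower were 3.57%, 0% and 3.57%, beside 17.5%, 30.1% and 19.4%. Beside Cdh4 and Cntnap2, Ptprg, a receptor tyrosine phosphatase, was at 3.46 to 4.40 log2 RPM in WT (median 4.09), 5.17, 5.21, 5.46 and 5.36 in Dnmt1 KO and 5.90, 5.91, 5.78 and 5.92 in Dicer/Dnmt1 KO. Its groups stood apart in 3 steps, with 1.86 ± 0.14 (adjusted p = 7.04e-09) in Dicer/Dnmt1 KO. The limma call of Ptprg between the knockouts was lost with A and B averaged (adjusted p = 0.12) and with the number as a random effect (adjusted p = 0.0614). Odz4, a teneurin that pairs across synapses, changed by 1.82 ± 0.23 (adjusted p = 3.06e-06) in Dicer/Dnmt1 KO. Fat3, a giant atypical cadherin, was above 0 log2 RPM in 8 libraries and spread from -2.75 to 0.83 in WT, so its estimate of 1.75 ± 0.45 in Dnmt1 KO rests on overlapping groups.

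Of the ion channels and neurotransmitter receptors, including release machinery, 16 were members. In Dnmt1 KO 11 were higher, 1 lower and 4 not called, with a median change of 1.04. All but 2 were higher in Dicer/Dnmt1 KO, 14 in all, beside 1 lower and 1 not called, with a median of 1.01, and between the knockouts 6 were higher and none lower, with a median of 0.36. As shares, 68.8%, 87.5% and 37.5% were higher, beside 23.5%, 31.9% and 16.9% of all rows. The shares lower were 6.25%, 6.25% and 0%, beside 17.5%, 30.1% and 19.4%. Rims1, an organizer of the presynaptic release site, was at 0.14 to 1.41 log2 RPM in WT (median 0.94), 1.77, 1.96, 2.15 and 1.98 in Dnmt1 KO and 2.83, 2.69, 2.65 and 2.99 in Dicer/Dnmt1 KO. It stepped up over the 3 groups, with 1.88 ± 0.19 (adjusted p = 2.64e-07) in Dicer/Dnmt1 KO. The limma call of Rims1 between the knockouts was lost with A and B averaged (adjusted p = 0.0854) and with the number as a random effect (adjusted p = 0.0956). Gabrg3, a subunit of GABA-A receptors, was at -3.07 to -1.15 log2 RPM in WT (median -1.61), 0.45, 0.01, 0.69 and 0.51 in Dnmt1 KO and 1.15, 0.74, 0.72 and 0.81 in Dicer/Dnmt1 KO. All WT libraries were below 0 and all knockout libraries above, with differences of 2.27 ± 0.30 and 2.70 ± 0.30, so this gene entered the set through the knockouts. Ryr3, a calcium release channel of the ryanodine family, changed by 1.42 ± 0.21 (adjusted p = 5.09e-05) in Dnmt1 KO, and Cadps2, a priming factor of dense core vesicles, had an estimate of 1.39 ± 0.26.

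The cytoskeleton, polarity and membrane scaffold genes were the largest group with 51 members. In Dnmt1 KO 15 were higher, 5 lower and 31 not called, with a median of 0.10. The counts for Dicer/Dnmt1 KO were 35 higher, 3 lower and 13 not called, with a median of 0.69, and between the knockouts 20 were higher and 1 lower, with a median of 0.40. Higher were thus 29.4%, 68.6% and 39.2%, beside 23.5%, 31.9% and 16.9% of all rows. Lower were 9.8%, 5.88% and 1.96%, beside 17.5%, 30.1% and 19.4%. Dock4, an activator of Rac, was at 2.06 to 3.5 log2 RPM in WT (median 2.76), 3.56, 3.53, 3.97 and 3.80 in Dnmt1 KO and 4.39, 4.52, 4.28 and 4.30 in Dicer/Dnmt1 KO. It changed by 1.64 ± 0.19 (adjusted p = 1.28e-06) in Dicer/Dnmt1 KO, and its relative Dock3 by 1.61 ± 0.16 (adjusted p = 1.71e-07). Kif26b, a kinesin, and Dlgap1, a postsynaptic scaffold, were below 0 log2 RPM in all WT libraries and entered the set through the knockouts, with estimates of 2.49 ± 0.35 and 2.13 ± 0.28 in Dicer/Dnmt1 KO. Ttc28, whose row is annotated as a long intergenic RNA, changed by 1.65 ± 0.33 (adjusted p = 0.000407). Spag16, a protein of the sperm and ciliary axoneme, was at -0.55 to 0.55 log2 RPM in WT (median 0.22), -0.72, -1.21, -1.31 and -1.87 in Dnmt1 KO and -1.89, -0.60, -1.56 and -2.17 in Dicer/Dnmt1 KO. All knockout libraries were below 0, so this gene entered the set through WT libraries alone. Its estimates were falls of 1.45 ± 0.29 and 1.73 ± 0.29 on the log2 scale. Utrn, the utrophin gene, was at 6.30 to 7.34 log2 RPM in WT (median 6.93), 6.95, 6.93, 7.04 and 7.05 in Dnmt1 KO and 7.90, 7.89, 7.69 and 7.71 in Dicer/Dnmt1 KO. It rose by 0.96 ± 0.15 (adjusted p = 2.47e-05) in Dicer/Dnmt1 KO, with no overlap between those libraries and any other.

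Transcription and chromatin regulators numbered 34. In Dnmt1 KO 10 were higher, 7 lower and 17 not called, with a median of 0.09. With Dicer lost as well, 19 were higher, 3 lower and 12 not called, with a median of 0.54, and between the knockouts 11 were higher and none lower, with a median of 0.41. These made 29.4%, 55.9% and 32.4% higher, beside 23.5%, 31.9% and 16.9% of all rows. The shares lower were 20.6%, 8.82% and 0%, beside 17.5%, 30.1% and 19.4%. Nfib, a nuclear factor I protein of lung and brain development, was at 2.50 to 3.34 log2 RPM in WT (median 2.80), 3.26, 3.33, 3.75 and 3.73 in Dnmt1 KO and 4.36, 4.51, 4.43 and 4.56 in Dicer/Dnmt1 KO. The highest WT library, at 3.34, overlapped the lowest Dnmt1 KO libraries, and the change in Dicer/Dnmt1 KO was 1.61 ± 0.14 (adjusted p = 4.82e-08). Its relative Nfia, below 0 in all WT libraries, had an estimate of 1.57 ± 0.26. Sox6, an SRY-related factor, was at -0.82 to 0.84 log2 RPM in WT (median 0.13), -0.79, -0.42, -0.82 and -0.24 in Dnmt1 KO and 1.53, 1.68, 0.97 and 1.00 in Dicer/Dnmt1 KO. Its Dicer/Dnmt1 KO libraries lay above all others, with 1.86 ± 0.30 (adjusted p = 0.000153) between the knockouts.

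Kinases, phosphodiesterases and growth factor signalling genes numbered 26. In Dnmt1 KO 12 were higher, 1 lower and 13 not called, with a median of 0.30. In Dicer/Dnmt1 KO 19 were higher, 2 lower and 5 not called, with a median of 0.62, and between the knockouts 7 were higher and 2 lower, with a median of 0.22. As shares, 46.2%, 73.1% and 26.9% were higher and 3.85%, 7.69% and 7.69% lower. Ltbp1, which tethers latent TGF-beta to the matrix, was at 2.44 to 3.24 log2 RPM in WT (median 2.84), 3.29, 3.11, 3.18 and 3.15 in Dnmt1 KO and 3.95, 4.07, 3.63 and 3.61 in Dicer/Dnmt1 KO. It changed by 1.00 ± 0.13 (adjusted p = 3.71e-06) in Dicer/Dnmt1 KO. Pde10a, a phosphodiesterase of cAMP and cGMP, had an estimate of 1.28 ± 0.24, with 3 WT libraries above 0 log2 RPM. Dgki, a diacylglycerol kinase, had 0.94 ± 0.27 and Plcb1, a phospholipase C, 1.12 ± 0.18, both with no WT library above 0. Dab1, the intracellular adaptor of reelin signalling, changed by 0.69 ± 0.13 (adjusted p = 0.000391) in Dnmt1 KO and 0.91 ± 0.13 (adjusted p = 1.18e-05) in Dicer/Dnmt1 KO. The 125 members in none of these 5 groups had 44 higher and 14 lower for Dnmt1 KO, 71 and 9 for Dicer/Dnmt1 KO and 45 and 4 between the knockouts, with medians of 0.12, 0.44 and 0.27. Each group is to be read beside the medians of 0.04, 0.02 and -0.01 over all rows tested. Of all rows 23.5%, 31.9% and 16.9% were higher, and 17.5%, 30.1% and 19.4% lower.

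Without WT number 4 the cytoskeletal and regulator lists no longer leaned upward in Dnmt1 KO. Over all rows that fit had 24.6% higher and 20.4% lower, with a median of 0.02. The scaffold genes had 14 higher (27.5%) and 13 lower (25.5%) with a median of -0.01. The transcription and chromatin regulators had 9 (26.5%) and 11 (32.4%) with a median of -0.14. The adhesion molecules kept a median of 0.41, with 12 higher (42.9%) and 3 lower (10.7%). The channels and receptors kept one of 1.01, with 11 (68.8%) and 2 (12.5%), and the signalling genes one of 0.24, with 11 (42.3%) and 4 (15.4%). For Dicer/Dnmt1 KO the 5 medians without these libraries lay between 0.36 for the regulators and 1.02 for the channels and receptors. Only 13 of the 28 adhesion molecules and 7 of the 16 channels and receptors were above 0 log2 RPM in all 16 libraries. Of these, 10 and 6 were higher in Dicer/Dnmt1 KO than in WT, and 6 and 4 were higher in Dnmt1 KO, where the median of the channels and receptors was then 0.46. As shares these were 76.9% and 85.7%, then 46.2% and 57.1%, to be read beside the shares of all rows held to that limit, given above.

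Genes of common fragile sites, which cut across these groups, numbered 16 members. In Dnmt1 KO 5 were higher, 3 lower and 8 not called, with a median of 0.02. Against WT, Dicer/Dnmt1 KO had 7 higher, 2 lower and 7 not called, with a median of 0.33, and between the knockouts 2 were higher and 1 lower, with a median of 0.21. The shares higher were 31.2%, 43.8% and 12.5%, beside 23.5%, 31.9% and 16.9% of all rows, and the shares lower 18.8%, 12.5% and 6.25%, beside 17.5%, 30.1% and 19.4%. Ptprg, Dab1 and Cntnap2 rose in both knockouts, Cntnap2 in Dicer/Dnmt1 KO by 0.45 ± 0.15 (adjusted p = 0.0156), or by 0.37 without Dicer/Dnmt1 KO 2B (adjusted p = 0.0655). That call was lost in 9 alternatives, and the change was 0.21 after quantile normalization (adjusted p = 0.241), 0.03 with the transcript length trend removed (adjusted p = 0.899) and 0.40 under the replicate block (adjusted p = 0.106). Immp2l was at 0.66 to 1.84 log2 RPM in WT (median 1.53), 0.13, 0.35, -0.46 and 0.00 in Dnmt1 KO and 0.57, 0.10, 0.81 and 0.45 in Dicer/Dnmt1 KO. The Dnmt1 KO libraries lay below every WT library, and the Dicer/Dnmt1 KO libraries overlapped the lowest of them. Auts2, a neurodevelopmental gene linked to Polycomb complexes, was at 1.39 to 3.37 log2 RPM in WT (median 2.42), 2.50, 2.38, 2.82 and 2.97 in Dnmt1 KO and 3.45, 3.82, 3.18 and 3.10 in Dicer/Dnmt1 KO. Its WT libraries covered nearly 2 log2 units, with WT 4A and WT 4B the lowest at 1.39 and 1.41, and its change was 1.05 ± 0.29 (adjusted p = 0.00476) in Dicer/Dnmt1 KO, or 0.74 without them (adjusted p = 0.00457).

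Factors of transcript elongation, none of them a member, were called about as often as all rows. Among the 47 that could be tested, Dnmt1 KO had 8 higher and 10 lower, Dicer/Dnmt1 KO 15 and 15, and the direct comparison of the knockouts 5 and 9, with medians of 0.07, 0.04 and -0.02. As shares these were 17% and 21.3%, 31.9% and 31.9%, and 10.6% and 19.1%, beside 23.5% and 17.5%, 31.9% and 30.1%, and 16.9% and 19.4% of all rows. Polr2a, the largest subunit of RNA polymerase II, changed by 1.14 ± 0.30 (adjusted p = 0.00287) in Dicer/Dnmt1 KO, and Hexim1, an inhibitor of the elongation kinase P-TEFb, by 0.68 ± 0.09 (adjusted p = 8.2e-06). Supt4h1, a subunit of the elongation factor DSIF, changed by -0.73 ± 0.15 (adjusted p = 0.000357), and Ell3, an elongation factor of the ELL family, by -0.98 ± 0.12 (adjusted p = 3.57e-06). Top2a, the topoisomerase of proliferating cells, changed by -0.91 ± 0.11 (adjusted p = 1.87e-06), and Top2b, its relative, by 0.47 ± 0.07 (adjusted p = 1.93e-05). Their part in the changes of the long genes was not tested.

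At the border of the set, the shortest members were Pam (300532 bases), BB287469 (301892) and Ranbp17 (301952), and the longest rows left out were Pde1c (299813), Akap13 (299075) and AW554918 (298322). The changes in Dicer/Dnmt1 KO against WT were 0.04 in Pam and 0.83 in Ranbp17, and 1.44, 0.62 and 0.06 in the 3 rows left out. BB287469 had 0 to 8 reads in WT, 142 to 215 with Dnmt1 KO and 69 to 200 with Dicer/Dnmt1 KO. It belongs to a family of near-identical Eif1a-like genes, so its reads may be shared among copies. Above 0 log2 RPM in exactly 4 libraries were Kif26b, Thsd7a, Lama2, Edil3 and Zfpm2, and 4 further long rows, with 3 such libraries, were left out. For 8 members no single annotated transcript spans 300 kb, so their span joins different transcripts.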

How the data were processed

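The authors sequenced stranded, ribosomal RNA-depleted total RNA, trimmed the reads with Trim Galore 0.3.5, aligned them to NCBIM37 with TopHat2 2.0.11 (versions per the submitters' processing notes), discarded alignments with a mapping quality under 20 and quantified genes in SeqMonk. The deposited values are log2 RPM, 1 column per library. A further 35 value columns of other samples were not used. Set back to the linear scale, values below 1000 reads came out whole (within 0.1 read) in 100% of cases, with a gene without reads written as 0.9 read, and 3 reads, the most a count of 0 allows, equal 0.0571 to 0.0954 RPM, for counting error only. Coordinates, transcript lengths and exons came from GENCODE M1, which held all 26127 rows, 26068 with identical coordinates. Start regions were read from the NCBIM37 genome.

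limma 3.58.1 in R 4.3.3 fitted 3 group means to log2 RPM, without covariates and with an intensity trend, for the 12892 rows above 0 log2 RPM in 4 or more libraries. Rows with a Benjamini-Hochberg adjusted p under 0.05 over all of them were called. The fit was tested on simulated data in which every library was drawn independently. That test therefore does not bear on libraries A and B of a number being treated as replicates. Deviations of same-numbered libraries of different groups correlated with mixed sign (r of -0.418 to 0.372), so numbers were not used as pairs. Letters A and B of a number within a group correlated (0.667). Genes were named by fixed rules: the 10 longest, the 5 highest by level and by level per kb, the 6 that rose and the 6 that fell most in each comparison, up to 6 of each role list and 6 elongation factors, the border rows, Dnmt1 and Dicer1. Some items that these rules name are not reported here. The members and lists were chosen with earlier results of these data known. Alternatives changed the libraries, replicate unit, scaling, filter, span limit, threshold and test (voom on recovered reads). One, restricting the rows to those above 0 in all 16 libraries, was added after the data were seen. Python 3.11.15, pandas 2.3.3 and matplotlib 3.10.9 made the summaries and plots.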

Additional observations from a re-analysis of the deposited data

Results flagged for a closer look

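Among 72 groups of libraries, those of 23 named members and of the median over all members, 3 held a library whose gap to its neighbour was large for the range of its group, a pattern that chance gives in about 1 of 20 groups. Prdm16 was at 3.09 log2 RPM in Dicer/Dnmt1 KO 1B, while the other libraries of that group lay at 2.41 to 2.48. Cntnap2 was at 1.78 in Dicer/Dnmt1 KO 2B, beside 1.44 to 1.49 in the rest of the group. Nalcn was at -0.21 in WT 4A, beside 0.32 to 0.77 in the other WT libraries.

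Among the members named above, 4 were called in opposite directions in the knockouts. They are given as single genes, without a share over all rows. Both calls use the same WT libraries, so the direct difference given with them is not separate support. Rora changed by -0.65 on the log2 scale in Dnmt1 KO and by 0.85 in Dicer/Dnmt1 KO, and the direct difference was 1.5 (adjusted p = 7.57e-06), with 4 of 4 Dicer/Dnmt1 KO libraries above 4 of 4 Dnmt1 KO libraries. Its rise was 0.23 with the transcript length trend removed (adjusted p = 0.352), and its fall was not called with the number as a random effect (adjusted p = 0.0722) or in letter B (adjusted p = 0.208). Arhgap26 changed by -0.37 and 1.02, and the direct difference was 1.39 (adjusted p = 5.83e-06). Sox6 changed by -0.67 and 1.19, with a direct difference of 1.86 (adjusted p = 0.000153), and Gm20388 by -0.21 and 0.44, with 0.65 (adjusted p = 3.37e-05). In these 3 as well the knockouts did not overlap, and the call of the fall in Dnmt1 KO was lost in 21 alternatives for Sox6 and 13 for Gm20388. Cadm1, an adhesion molecule named here after its values were seen, was also called in opposite directions and changed by -0.35 and 0.38.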

How the results depend on the processing

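As reported, 47.9% of the members were called for Dnmt1 KO against WT, 70.4% for Dicer/Dnmt1 KO against WT and 36.4% between the knockouts. With letters A and B averaged, the first and the last were 26.8% and 9.64% (17.7% and 9.5% of all rows), and with the number as a random effect 25% and 17.1% (21.1% and 16.4%). In this order of comparisons, letter A libraries alone gave 21.4%, 45.4% and 7.14% (14.2%, 31% and 7.38% of all rows), and the threshold of at least 2-fold 15.7%, 30.7% and 8.93% (6.99%, 12.8% and 4.57%). Letter B alone gave 19.3% in Dnmt1 KO and 5.36% between the knockouts (12.5% and 5.17%). Between the knockouts the share called either way was thus near that of all rows in these fits, as reported too (36.3%), apart from the 2-fold threshold. The random effect keeps all libraries and allows for the correlation of A and B. Without a filter on low values, 20% of 535 long rows were called between the knockouts (20.9% of all rows), with a median change of 0.20 (0.30 as reported). With the transcript length trend removed, the median change was 0.22 in Dicer/Dnmt1 KO against WT (0.61 as reported) and 0.14 between the knockouts, and the cause was not tested. Leaving out each library in turn gave medians of 0.14 to 0.26, 0.52 to 0.68 and 0.29 to 0.34. Over every alternative the medians kept their sign.

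The replicate block of number and letter uses WT numbers 1 and 2 only. For Dnmt1 KO it gave 86 higher (30.7%) and 58 lower (20.7%) members, beside 25% and 18.9% of all rows. For Dicer/Dnmt1 KO it gave 150 (53.6%) and 24 (8.57%), beside 28.9% and 26.3%. Between the knockouts it gave 120 (42.9%) and 12 (4.29%), beside 21.5% and 24%. The labels do not say what same-numbered libraries of different groups share, and their deviations correlated with mixed sign.

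Of 3987 refits of 126 results of named members, 3691 kept direction and call and 293 lost the call. The other 3 changed sign. With the length trend removed, Macf1 was at -0.40 in Dicer/Dnmt1 KO against WT, where limma then called it lower (adjusted p = 0.00017). Between the knockouts it was at -0.0285 in that fit, not called (adjusted p = 0.822). Lama2 was at -0.016 in Dicer/Dnmt1 KO against WT after quantile normalization, also not called (adjusted p = 0.965). Calls lost without 1 library include Zmat4 between the knockouts (4 libraries) and Ltbp1 in Dnmt1 KO (3 libraries).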
